A study of Mus musculus with 5 samples.

Results

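The genes that mark T cells, regulatory T cells and natural killer (NK) cells were followed in uterine RNA of females mated with young or with aged males. The 10 genes were taken by symbol from the deposited count table, out of 28666 listed genes, and each symbol matched 1 listed gene. They were Cd3d, Cd3e, Cd3g, Cd4, Cd8a, Foxp3, Ncr1, Klrb1c, Gzmb and Prf1. The tissue was the uterus of pseudopregnant ICR females, an outbred stock, 6 to 8 weeks old. The aged-SP group (2 libraries, replicates 1 and 4) had been caged with old ligated males and the young-SP group (3 libraries, replicates 1, 2 and 4) with young ligated males. The ligated (vasectomized) males, of the C57BL/6 strain per the study's methods, delivered seminal plasma (SP) without sperm, so neither group carried embryos, and the groups shared every other label. The labels place the collection 3.5 days after caging, and the study's methods give a slightly earlier point, before embryo transfer. The question was how the age of the male altered the uterus before implantation. Unmated females were not analysed here, so the values compare 2 kinds of male and not mating with no mating.

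T cells recognise antigen through a receptor made of an alpha and a beta chain or of a gamma and a delta chain. The receptor reaches the cell surface only together with the CD3 proteins, which pass its signal into the cell. CD4 and CD8 are coreceptors that divide helper and regulatory T cells from killer T cells, and Foxp3 is the transcription factor that defines regulatory T cells, which restrain responses to paternal antigens in early pregnancy. NK cells lack a rearranged receptor and carry activating receptors such as NKp46, and with killer T cells they share the granule proteins perforin and granzyme B. In the mouse uterus NK cells multiply and arm themselves mainly after implantation, in the decidua.

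Total counts per library lay between 15071914 and 16728601, and the scaling factors (TMM) between 0.990 and 1.02, so a given count had nearly the same weight in each library. In a principal component analysis of the 500 most variable genes, young-SP replicate 1 (-9.43 on the first component) stood apart from its group (41.9 and 36.6) and nearer to the aged-SP libraries (-43.7 and -25.5). Values without that library are therefore given beside some of the results. It was picked for lying nearest the aged-SP libraries, so leaving it out favours a difference between the groups. Such values are no independent support for a difference. The 10 uterus markers summed to between 7802 and 11130 CPM (counts scaled by library size) in the 5 libraries, led by the smooth muscle genes Myh11 and Acta2. Against this, the 10 T and NK genes summed to 42.0 and 31.3 CPM in the aged-SP group and to 59.6, 42.3 and 70.6 CPM in the young-SP group, with young-SP replicate 2 barely above aged-SP replicate 1. The tissue was measured in bulk, in which fewer cells of a type and less RNA per cell cannot be told apart. The labels do not say that each library came from a separate female, so p-values measure only the spread between these samples. The study's text reports that a young-SP sample was left out as an outlier in clustering. Such a choice by expression can narrow the spread within a group. The study's text does not give the group sizes before that step, and the labels hold fewer aged-SP than young-SP samples.

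Of the 10 genes, 9 passed the filter on low counts and were tested among 17013 genes, and Foxp3 did not. A gene was called where edgeR's quasi-likelihood test gave a Benjamini-Hochberg adjusted p under 0.05 with a log2 fold change beyond 1 in either direction. By that rule 0 of these 9 were called, against 0.147% of the genes tested. At an unadjusted p under 0.05 there were 3 (Cd3d, Cd3g and Ncr1), each lower in the aged-SP group, against 9.36% of all tested genes that were lower at that level. DESeq2 called 1 gene, Cd3g, against 3.60% of its tested genes, and limma-voom called 0, against 0.159% of its tested genes. In 3 sets of counts simulated with edgeR's dispersions, 200 of 17013 genes were changed 4-fold. There 22% of DESeq2's calls were false, against 6.9% for edgeR and 7.3% for limma-voom. The shares depend on these settings and on dispersions taken from edgeR, so they do not give the share of false calls in the real counts. The DESeq2 values below are to be read with caution. The log2 fold change was below 0 for 8 of the 9, as it was for 49.1% of the genes tested, with Cd4 the exception. The median log2 fold change of the 9 was -0.81, and that of all tested genes was 0.007. Without young-SP replicate 1, edgeR called 578 of all tested genes and still 0 of the 9.

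**Figure D1:**
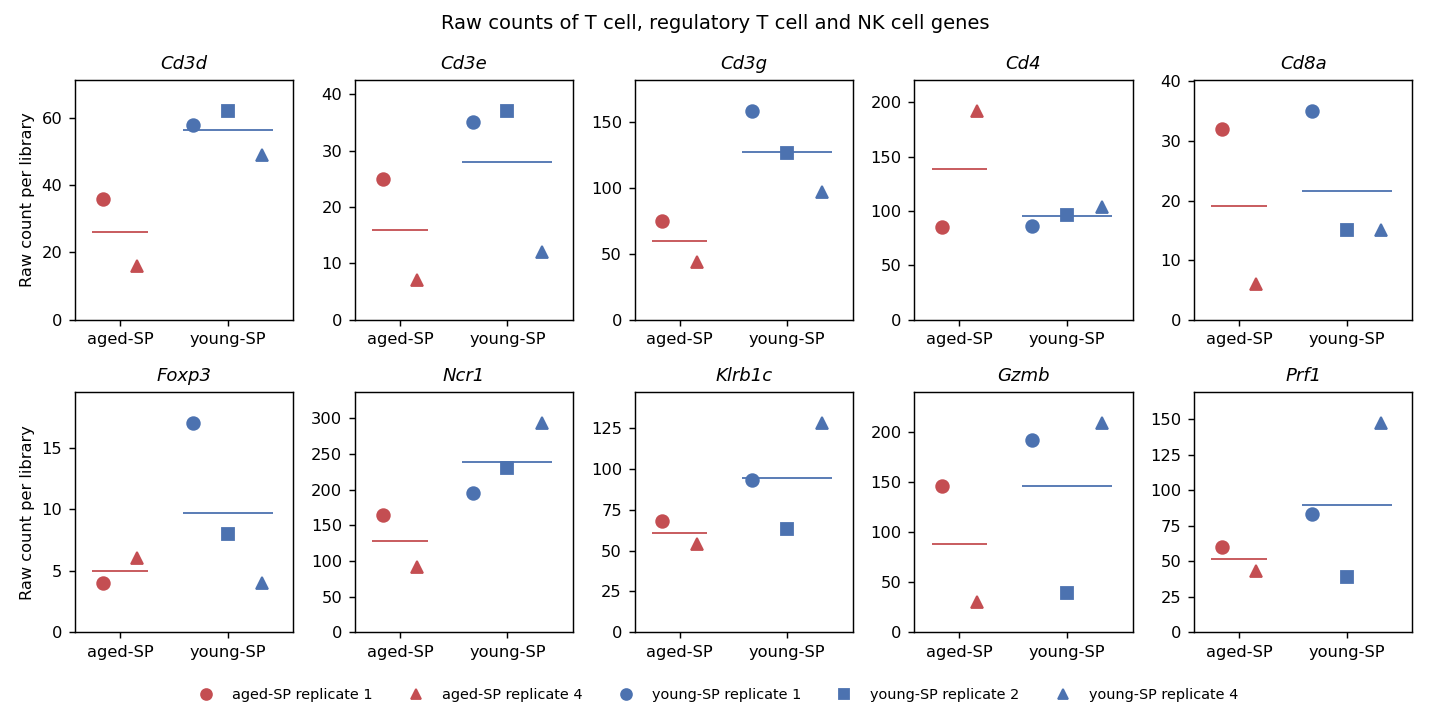
Raw read counts of the 10 genes in 1 panel each, with 1 point for each of the 2 aged-SP and 3 young-SP libraries, a line at the group mean and a linear axis from 0 that differs between panels. The aged-SP points lie below every young-SP point for Cd3d, Cd3g and Ncr1 and among or beyond them for the other genes.

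The 3 CD3 genes, whose products form the gamma, delta and epsilon subunits of the signalling complex, lie side by side on chromosome 9 over 40056 bases, and the start sites of Cd3g and Cd3d, which are read in opposite directions, are 1355 bases apart. In the annotation of the count table, whose positions match GRCm38, Cd3g spans chr9:44969572-44980431 on the minus strand, Cd3d chr9:44981786-44987339 on the plus strand and Cd3e chr9:44998740-45009627 on the minus strand. The 250 bases before each start site are printed because Cd3g and Cd3d had the lowest unadjusted p-values of the 10 genes and Cd3e shares their locus. The sequences are from RefSeq (GRCm38.p6), 5′ to 3′ along the gene, at chr9:44981536-44981785 (plus strand), chr9:44980432-44980681 (minus strand) and chr9:45009612-45009861 (minus strand). Capitals mark matches on either strand to the core motifs of 3 transcription factor families, and no marked match overlaps another.
Cd3d: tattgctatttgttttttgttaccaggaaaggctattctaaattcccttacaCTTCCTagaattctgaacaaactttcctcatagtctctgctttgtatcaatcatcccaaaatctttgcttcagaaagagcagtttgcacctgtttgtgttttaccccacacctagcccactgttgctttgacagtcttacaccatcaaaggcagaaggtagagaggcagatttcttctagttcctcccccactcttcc
Cd3g: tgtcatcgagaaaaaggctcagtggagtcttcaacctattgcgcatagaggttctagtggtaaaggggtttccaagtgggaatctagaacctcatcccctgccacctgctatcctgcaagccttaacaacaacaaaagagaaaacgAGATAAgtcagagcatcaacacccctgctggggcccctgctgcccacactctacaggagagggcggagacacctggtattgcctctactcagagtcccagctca
Cd3e: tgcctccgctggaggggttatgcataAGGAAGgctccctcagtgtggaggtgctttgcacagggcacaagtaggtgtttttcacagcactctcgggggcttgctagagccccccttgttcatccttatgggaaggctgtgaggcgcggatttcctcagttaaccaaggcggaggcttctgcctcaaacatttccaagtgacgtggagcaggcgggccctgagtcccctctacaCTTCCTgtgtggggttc
For the ETS family the letters searched were AGGAAG, which occur in 29.5% of 32851 promoter windows of this length. For the RUNX family they were TGTGGT, found in 14% of these windows. For the family of GATA factors they were AGATAA, found in 9.99% of the windows. RefSeq windows were matched for 9 of the 10 genes (not for Cd4), and the ETS letters were found in the windows of 5 (Cd3d, Cd3e, Foxp3, Klrb1c and Prf1), the RUNX letters in 4 (Gzmb, Klrb1c, Ncr1 and Prf1) and the GATA letters in 2 (Cd3g and Foxp3). Counted by window, as the shares were, the letters occurred in 5 (ETS), 5 (RUNX) and 2 (GATA) of these genes' 11 windows. These matches describe letters in the window and not bound sites.

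Cd3g was read 75 and 44 times in the aged-SP libraries (replicates 1 and 4) and 158, 126 and 97 times in the young-SP libraries (replicates 1, 2 and 4). Every young-SP count was above every aged-SP count, which was also true of 38.8% of all tested genes in one direction or the other and of 19.3% in this direction. The mean was 3.67 ± 1.22 CPM in the aged-SP group (SD, n = 2) against 7.94 ± 1.76 CPM (SD, n = 3). The log2 fold change was -1.11 ± 0.32 (SE), with an adjusted p of 0.166 by edgeR and 0.0416 by DESeq2, so the call depended on the tool. Cd3d was read 36 and 16 times against 58, 62 and 49 times, again without overlap. Its mean was 1.60 ± 0.815 CPM against 3.52 ± 0.218 CPM, and its log2 fold change of -1.13 ± 0.38 had an adjusted p of 0.207 by edgeR and 0.140 by DESeq2. The young-SP libraries were close to each other for Cd3d, while the 2 aged-SP libraries differed by more than that group. Cd3e was read 25 and 7 times against 35, 37 and 12 times. The groups overlapped, since young-SP replicate 4 had fewer Cd3e reads than aged-SP replicate 1, and the log2 fold change of -0.81 ± 0.68 had an adjusted p of 0.558 (edgeR). An annotated gene on the opposite strand, Gm48719, overlaps Cd3e, and the named library kit does not record strand, so reads in the overlap could not be told apart, though 2.16% of the 50-base stretches of Cd3e are shared with other transcripts.

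Summed over the 3 genes, the CD3 counts were 136 and 67 in the aged-SP libraries and 251, 225 and 158 in the young-SP libraries. Aged-SP replicate 4 was lowest for each of the 3 genes. Without it the log2 fold changes were smaller, -0.69 for Cd3d, -0.81 for Cd3g and -0.20 for Cd3e, and without young-SP replicate 1 they were -1.12, -0.93 and -0.62 (adjusted p 0.212 for Cd3d and 0.165 for Cd3g by edgeR). Set against Ptprc, the CD45 gene that all leukocytes express (log2 fold change -0.20, adjusted p 0.673 by edgeR), the summed CD3 counts were 84.6 and 57.6 per 1000 Ptprc counts in the aged-SP libraries and 126, 164.5 and 117 in the young-SP libraries. The groups did not overlap on this scale either. In CPM 38.8% of all tested genes were apart in one direction or the other, and the share per Ptprc count was not computed.

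**Figure D2:**
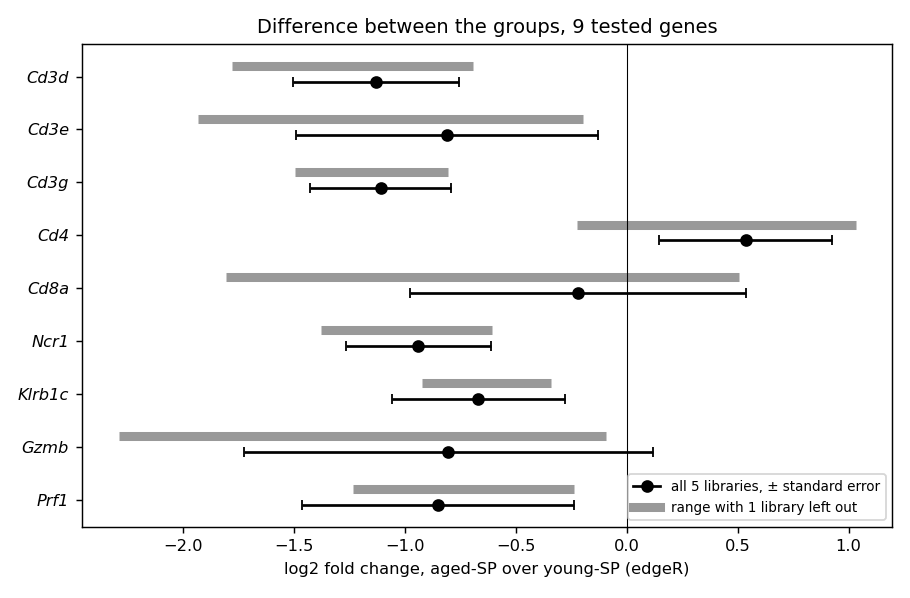
Log2 fold changes (aged-SP over young-SP) of the 9 tested genes by edgeR, as points with bars for the standard error, and grey bars for the range of values with 1 library left out. Cd4 alone has a point above 0, at 0.54, and the grey bars of Cd4 and Cd8a cross 0.

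The coreceptor genes lie on chromosome 6, Cd4 at chr6:124864692-124888221 on the minus strand and Cd8a at chr6:71373427-71379173 on the plus strand. Cd4, the coreceptor of helper and regulatory T cells that in the mouse is also found on some dendritic and innate lymphoid cells, was read 85 and 192 times in the aged-SP libraries and 86, 96 and 104 times in the young-SP libraries. Aged-SP replicate 4 alone was high, and aged-SP replicate 1 was level with the lowest young-SP library. The log2 fold change of 0.54 ± 0.39 had an adjusted p of 0.496 (edgeR), and without aged-SP replicate 4 it was -0.22. Cd8a, the coreceptor of killer T cells, was read 32 and 6 times against 35, 15 and 15 times. The 2 replicates numbered 1 had about the same Cd8a count, and the other 3 libraries had about a count of 15 or fewer. Its log2 fold change was -0.22 ± 0.76 (adjusted p 0.900 by edgeR), 0.51 without aged-SP replicate 4 and 0.29 without young-SP replicate 1. Aged-SP replicate 4 thus held the highest Cd4 count and the lowest Cd8a count, with 32.0 Cd4 reads per Cd8a read against 2.66 in the other aged-SP library and 2.46, 6.40 and 6.93 in the young-SP libraries.

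Foxp3, listed at chrX:7579676-7595243 on the plus strand, gave 4 and 6 reads in the aged-SP libraries and 17, 8 and 4 in the young-SP libraries. The groups overlapped, with young-SP replicate 4 level with the lower aged-SP library and young-SP replicate 1 above all others. The means were 0.313 ± 0.100 CPM (SD, n = 2) and 0.601 ± 0.413 CPM (SD, n = 3). With no filter on low counts the log2 fold change was -0.94 and the adjusted p 0.663 (edgeR), so a difference was not detectable at this depth. The GENCODE M21 model of Foxp3 is longer than the listed gene and starts at 7573644. It overlaps 4 annotated genes, among them Flicr on its own strand and Ccdc22 on the opposite strand. Of the 50-base stretches of that model, 23.1% also occur in other transcripts. Part of these few reads may be ambiguous, but the shorter listed gene was not checked.

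The NK receptor genes Ncr1 (chr7:4337724-4345164, plus strand) and Klrb1c (chr6:128778485-128789215, minus strand) were both detected in every library. Ncr1, which codes for the activating receptor NKp46 of NK and other innate lymphoid cells, was read 164 and 91 times in the aged-SP libraries and 195, 230 and 293 times in the young-SP libraries. The groups did not overlap in counts or CPM, which in CPM was also true of 19.3% of all tested genes in this direction. They did overlap per 1000 Ptprc counts (102 and 78.2 against 98.0, 168 and 218). Its mean was 7.87 ± 2.90 CPM against 15.1 ± 3.91 CPM, and the log2 fold change of -0.94 ± 0.33 had an adjusted p of 0.221 by edgeR and 0.0910 by DESeq2. Without aged-SP replicate 4 it was -0.61, and without young-SP replicate 1 it was -1.08 (adjusted p 0.145 by edgeR). Klrb1c, which codes for the NK1.1 receptor of NK cells, was read 68 and 54 times against 93, 63 and 128 times. Young-SP replicate 2 fell between the aged-SP libraries, and the log2 fold change of -0.67 ± 0.39 had an adjusted p of 0.409 (edgeR). Of the 50-base stretches of Klrb1c, 17.0% were shared with Gm44511 or Klrb1a, so its counts are less certain than those of Ncr1, which shared 0%.

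The granule genes were Gzmb (chr14:56258838-56262260, minus strand) and Prf1 (chr10:61297833-61304680, plus strand). Gzmb, coding for granzyme B, the protease that triggers death of the target cell, was read 146 and 30 times in the aged-SP libraries and 192, 39 and 209 times in the young-SP libraries. Both groups held a library with few reads, aged-SP replicate 4 and young-SP replicate 2, and the groups overlapped over most of their range. The log2 fold change of -0.80 ± 0.92 had an adjusted p of 0.675 (edgeR) and ran from -2.29 without aged-SP replicate 1 to -0.09 without aged-SP replicate 4. Prf1, coding for perforin, the pore-forming protein that lets granzymes in, was read 60 and 43 times against 83, 39 and 147 times. Young-SP replicate 2 was the lowest of all 5 libraries for Prf1, and the log2 fold change of -0.85 ± 0.61 had an adjusted p of 0.494 (edgeR) and was -0.24 without young-SP replicate 4.

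Per length, in the deposited FPKM (reads scaled by gene length and library total), Ncr1 had the highest mean level over the 5 libraries (7.93), followed by Gzmb (5.40), Cd3g (1.91), Prf1 (1.83), Cd4 (1.75), Klrb1c (1.73), Cd3d (1.52), Cd3e and Cd8a (0.350 each) and Foxp3 (0.122). The ranges of neighbours in this order overlapped, except that every library of Cd3d (0.562 FPKM or more) lay above every library of Cd3e (0.5475 FPKM or less). The order pools the groups, and by group means Cd4 stood higher in the aged-SP group (2.15 FPKM, above Cd3g at 1.11) and lower in the young-SP group (1.49 FPKM, below Cd3g at 2.43). Ncr1 ran from 3.77 to 12.6 FPKM, and its lowest library lay above the highest of Cd3g (3.00 FPKM) and Cd4 (3.04 FPKM) and level with the highest of Prf1 (3.77 FPKM). Gzmb ran from 1.33 to 9.66 FPKM.

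**Figure D3:**
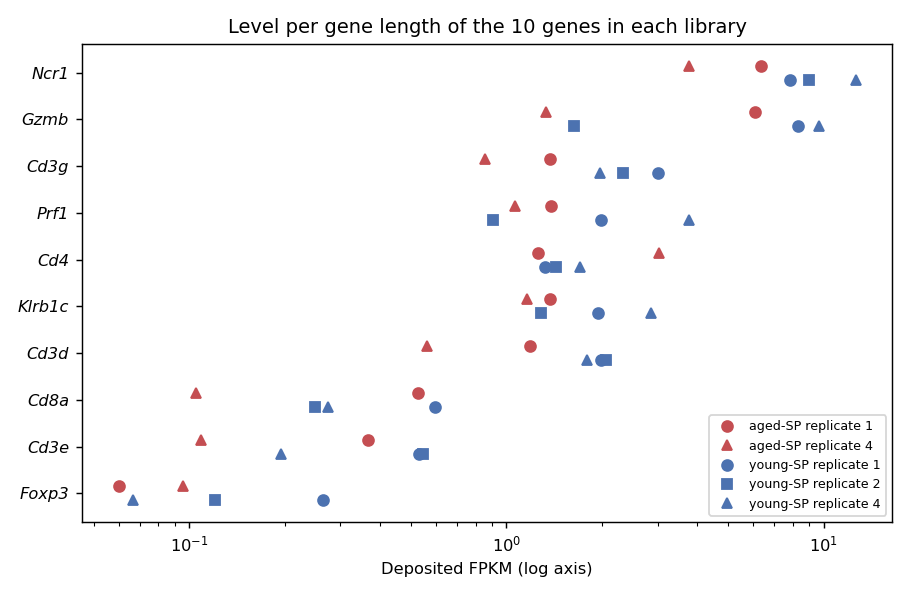
FPKM (log axis) of the 10 genes in each library, ordered by the mean over all 5 libraries, with 1 point per library. Ncr1 and Gzmb lie highest, Foxp3 lies lowest at 0.265 FPKM or less, and Gzmb splits into 2 libraries at 1.64 FPKM or less and 3 at 6.08 FPKM or more.

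The receptor chains that the CD3 proteins carry were described next, from a list of 7 constant-region genes. All 7 were tested and 0 were called by edgeR, while 5 had an unadjusted p under 0.05 and were lower in the aged-SP group, against the 9.36% given above. In CPM the groups did not overlap for 6 of the 7, all lower, against 19.3% of all tested genes. The median log2 fold change was -1.28, and DESeq2 gave an adjusted p under 0.05 for 3, all lower, against 3.89% of its tested genes. Trdc, the constant region of the delta chain, was read 12 and 13 times in the aged-SP libraries and 63, 77 and 37 times in the young-SP libraries. The groups did not overlap, and the log2 fold change of -2.22 ± 0.38 had an adjusted p of 0.0829 by edgeR and 0.000902 by DESeq2. It was -2.18 without young-SP replicate 1 (adjusted p 0.0614 by edgeR). Gm43434 and Trdv5, annotated on the opposite strand, overlap Trdc, so reads in the overlap could not be told apart. Of the 50-base stretches of Trdc, 5.92% are shared with other transcripts.

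The following genes of that list outside the naming rule, and the variable genes, were picked after their values had been seen. Tcrg-C1, a gamma chain constant region, was read 10 and 15 times against 37, 64 and 35 times, Tcrg-C2 3 and 4 times against 17, 12 and 23 times, and Tcrg-C4 22 and 14 times against 49, 51 and 31 times. None of the 3 overlapped between the groups, and their log2 fold changes were -1.84, -2.29 and -1.28. Tcrg-C2 passed the filter on low counts only through its young-SP reads. Its test and its place in the counts of lower genes were therefore favoured in that direction. Tcrg-C1 and Tcrg-C2 shared 34.2% and 25.4% of their 50-base stretches with other genes, above all Tcrg-C3, and Tcrg-C4 shared 0%. Trac, the only alpha chain constant region, went the other way, with 24 and 39 reads against 20, 27 and 17, overlapping groups and a log2 fold change of 0.56 ± 0.36 (adjusted p 0.448 by edgeR) that was 0.13 without aged-SP replicate 4. The beta chain constant regions lay between. Trbc1 was read 48 and 51 times against 67, 88 and 49 times (log2 fold change -0.45 ± 0.28, groups apart in CPM but not in raw counts), and Trbc2 33 and 31 times against 74, 76 and 65 times (log2 fold change -1.17 ± 0.22, adjusted p 0.0905 by edgeR and 0.0137 by DESeq2). About 40.5% of Trbc1 and 44.0% of Trbc2 is shared sequence, mostly between the pair, so the split of reads between them is uncertain.

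Gamma and delta constant regions together gave 47 and 46 reads in the aged-SP libraries and 166, 204 and 126 in the young-SP libraries. Alpha and beta constant regions gave 105 and 121 reads against 161, 191 and 131. The ratio of the first sum to the second was 0.448 and 0.380 in the aged-SP libraries and 1.03, 1.07 and 0.962 in the young-SP libraries, or 0.414 ± 0.0477 (SD, n = 2) against 1.02 ± 0.0539 (SD, n = 3). The ratio needs no scaling between libraries, and its difference was larger than the spread within each group. These sums and their ratio were formed after the values had been seen. An exact two-sided permutation test gave p = 0.2. That is the smallest p that 2 against 3 libraries allow, so the test could not decide whether the groups differed. Most variable genes were near 0. Only 4 of the 49 listed receptor variable genes had 15 or more counts over the 5 libraries. Among them Tcrg-V6 was read 4 and 1 times against 23, 21 and 20 times and Trdv4 23 and 14 times against 66, 74 and 51 times. Tcrg-V6 passed that cut only through its young-SP reads, so the cut favoured a gene with its direction of difference. A population of gamma delta T cells with a nearly fixed receptor built on a V gamma 6 chain is known in the mouse female reproductive tract. The log2 fold changes were -3.05 ± 0.56 for Tcrg-V6 and -1.79 ± 0.32 for Trdv4, with adjusted p-values of 0.0877 and 0.0851 by edgeR and 0.0117 and 0.00168 by DESeq2. The 2 other variable genes, Trgv2 (4 and 6 reads against 7, 9 and 7) and Trbv13-2 (1 and 2 reads against 4, 2 and 7), had few reads in both groups.

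**Figure D4:**
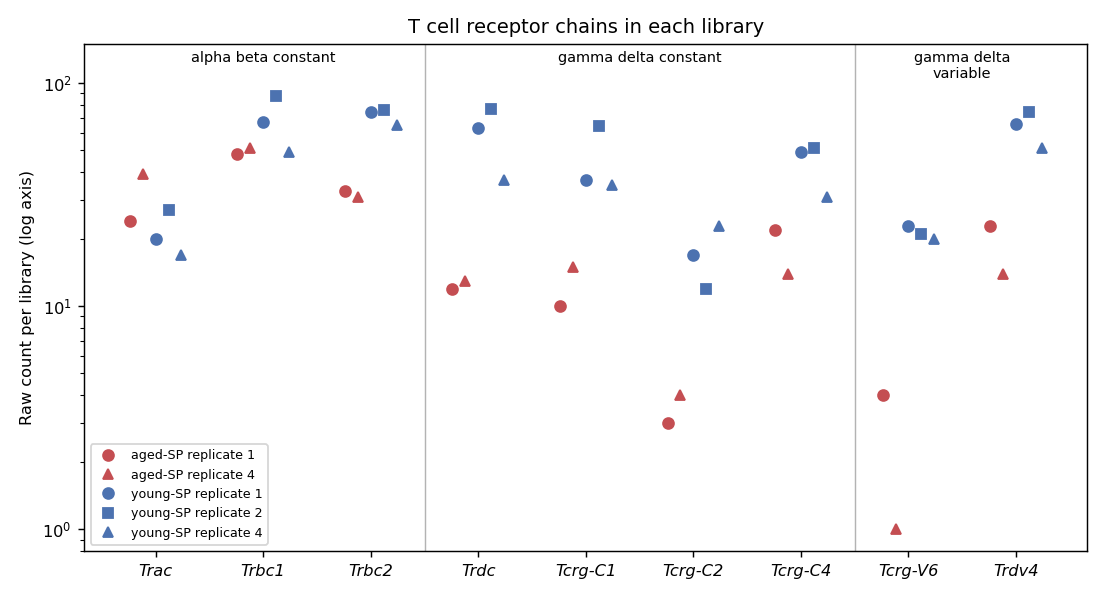
Raw counts of T cell receptor constant-region genes and of the variable genes Tcrg-V6 and Trdv4 in each library (log axis), with 1 point per library. The aged-SP points lie below the young-SP points for the gamma and delta genes, and the groups overlap for Trac.

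Among 18 genes of receptor signalling and T cell identity, 16 were tested, 0 were called by edgeR, 4 were lower at an unadjusted p under 0.05 and 0 higher, against 9.36% of all tested genes that were lower. By fold change 13 were lower and 3 higher, against 49.1% lower over all tested genes. The median log2 fold change was -0.59, and -0.89 without aged-SP replicate 1. Zap70, the kinase that binds the phosphorylated receptor complex, was read 34 and 38 times in the aged-SP libraries and 78, 92 and 72 times in the young-SP libraries. That difference, a log2 fold change of -1.17 ± 0.23, had an adjusted p of 0.0961 by edgeR and 0.0108 by DESeq2. Thy1, a surface protein of T cells that stromal cells and neurons also make, was read 1204 and 915 times against 1596, 1662 and 1771 times (log2 fold change -0.68 ± 0.15, adjusted p 0.109 by edgeR and 0.00492 by DESeq2). Lcp2, an adaptor of the receptor pathway that myeloid cells also express, overlapped, as the counts of 237 and 215 against 320, 192 and 217 show. Tcf7, a transcription factor of the T lineage, had a log2 fold change of -0.24 ± 0.14. Cd247, the zeta chain of the receptor complex (picked after its values were seen), was read 30 and 25 times against 56, 67 and 41 times.

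Other genes linked to regulatory T cells were found on both sides. Of 11 listed genes other than Foxp3, 9 were tested, 0 were called by edgeR, and 3 were higher and 0 lower at an unadjusted p under 0.05, against 9.62% of all tested genes that were higher. By fold change 6 were higher and 3 lower, against 49.1% lower over all tested genes. In CPM the groups were apart for 4 that were higher and 2 that were lower, against 38.8% of all tested genes in either direction. The median log2 fold change was 0.46, and -0.01 without aged-SP replicate 1. Gpr83, a receptor found on regulatory T cells and in other tissues, was read 434 and 532 times in the aged-SP libraries and 276, 222 and 290 times in the young-SP libraries. Lrrc32, which codes for the TGF-beta docking protein GARP of regulatory T cells, platelets and endothelium, was read 711 and 828 times against 498, 605 and 497 times. Neither gene overlapped between the groups, and their log2 fold changes of 0.86 ± 0.21 and 0.52 ± 0.13 had adjusted p-values of 0.134 and 0.134 by edgeR and 0.0168 and 0.0414 by DESeq2. Il2ra, the high-affinity IL-2 receptor chain (picked after its values were seen), was read 43 and 43 times against 20, 25 and 20 times. Tigit, an inhibitory receptor of T and NK cells (also picked later), was read 8 and 6 times against 15, 13 and 10 times, lower without overlap (log2 fold change -0.86 ± 0.41, adjusted p 0.326 by edgeR). Tigit, too, passed the filter on low counts only through its young-SP reads. Ikzf2, coding for Helios, was read 209 and 229 times against 241, 252 and 238 times, while Ctla4, an inhibitory receptor (picked after its values were seen), gave 7 and 0 reads against 1, 2 and 1 and was not tested.

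Among 21 genes of NK and innate lymphoid cells other than Ncr1 and Klrb1c, 20 were tested, 0 were called by edgeR, 5 were lower and 0 higher at an unadjusted p under 0.05, against 9.36% of all tested genes that were lower. By fold change 14 were lower and 6 higher, against 49.1% lower over all tested genes. The groups did not overlap for 9, all lower, against 19.3% of all tested genes. The median log2 fold change was -0.53, and -0.26 without aged-SP replicate 4. Styk1, a kinase-related membrane protein that NK cells express, was read 21 and 22 times in the aged-SP libraries and 62, 85 and 77 times in the young-SP libraries. Its log2 fold change of -1.80 ± 0.27 had an adjusted p of 0.0734 by edgeR and 0.000323 by DESeq2. By edgeR the adjusted p was 0.0318 without young-SP replicate 1 and 0.188 with the replicate number as a block. Nkg7, a granule membrane protein of NK and killer T cells, was read 82 and 69 times against 126, 140 and 157 times (log2 fold change -0.92 ± 0.22, adjusted p 0.125 by edgeR and 0.0231 by DESeq2). Il2rb, the receptor chain through which IL-2 and IL-15 sustain NK cells, and Eomes, a transcription factor of NK cells (both picked after their values were seen), were read 261 and 182 against 387, 359 and 470 times and 41 and 43 against 58, 101 and 94 times. The groups did not overlap for either. Other genes of the list had values above 0, such as the chemokine genes Xcl1 (51 and 15 reads against 17, 25 and 25) and Ccl5 (141 and 128 against 159, 45 and 41), with log2 fold changes of 0.53 ± 0.54 and 0.71 ± 0.63 and overlapping groups (both picked after their values were seen). Without aged-SP replicate 1 the value of Xcl1 was -0.55, and without young-SP replicate 1 that of Ccl5 was 1.62 (adjusted p 0.0298 by edgeR). With the replicate number as a block the adjusted p of Ccl5 was 0.620 (edgeR). The values of 0.0318 and 0.0298 rest on leaving out the library picked as nearest the aged-SP group. The most abundant genes of the list were also above 0. Itga1 (2509 and 2497 reads against 1668, 2057 and 2310), Itga2 (921 and 352 against 508, 203 and 203) and Tyrobp (777 and 1118 against 1152, 657 and 679) had log2 fold changes above 0 with adjusted p-values of 0.412, 0.377 and 0.787 (edgeR), and their groups overlapped in CPM.

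Of 17 genes of the cytotoxic granule other than Gzmb and Prf1, 16 were tested, 0 were called by edgeR and 2 were lower at an unadjusted p under 0.05, near the 9.36% of all tested genes. Both were named by the rule. Gzmk, coding for granzyme K, was read 5 and 3 times in the aged-SP libraries and 18, 21 and 23 times in the young-SP libraries (log2 fold change -2.35 ± 0.43, adjusted p 0.0886 by edgeR and 0.0346 by DESeq2). Gzmk passed the filter on low counts only through its young-SP reads, so the filter favoured its direction of difference. Unc13d, coding for Munc13-4, which primes granules for release, was read 151 and 104 times against 251, 244 and 280 times (log2 fold change -1.04 ± 0.22, adjusted p 0.107 by edgeR and 0.00273 by DESeq2). The general granule genes Srgn, Ctsc and Serpinb9, which myeloid cells also make, had log2 fold changes of 0.23, 1.31 and 0.20 with adjusted p-values of 0.756, 0.329 and 0.484 (edgeR). Each rested on single libraries, being 0.01 for Srgn without young-SP replicate 2, 0.26 for Ctsc and 0.04 for Serpinb9 without aged-SP replicate 1. The list's median log2 fold change was -0.41, but -1.20 without aged-SP replicate 1 0.32 without aged-SP replicate 4 and 0.11 without young-SP replicate 4, so single libraries in either group turned its sign.

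Most granzymes differed between libraries of the same group by more than between the groups (those in the next sentences were picked after their values were seen). Gzma was read 152 and 110 times against 152, 114 and 303 times and Gzmc 45 and 14 times against 48, 21 and 83 times. Gzmd was read 58 and 2 times against 21, 7 and 100 times, Gzme 37 and 1 against 17, 2 and 46, Gzmf 27 and 0 against 6, 9 and 36, and Gzmg 84 and 2 against 21, 2 and 33. As for Gzmb, aged-SP replicate 4 and young-SP replicate 2 were the low libraries of their groups for each of these except Gzmf, for which young-SP replicate 1 was the low one. These genes lie in the Gzmb cluster apart from Gzma, and Gzmd to Gzmg share between 19.4% and 21.9% of their 50-base stretches with each other or with further cluster genes. The split of reads between them is therefore uncertain. Gzmm, in contrast, was read 21 and 29 times against 16, 11 and 5 times, without overlap and higher in the aged-SP group (log2 fold change 1.22, adjusted p 0.274 by edgeR). In CPM 38.8% of all tested genes were apart in one direction or the other.

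**Figure D5:**
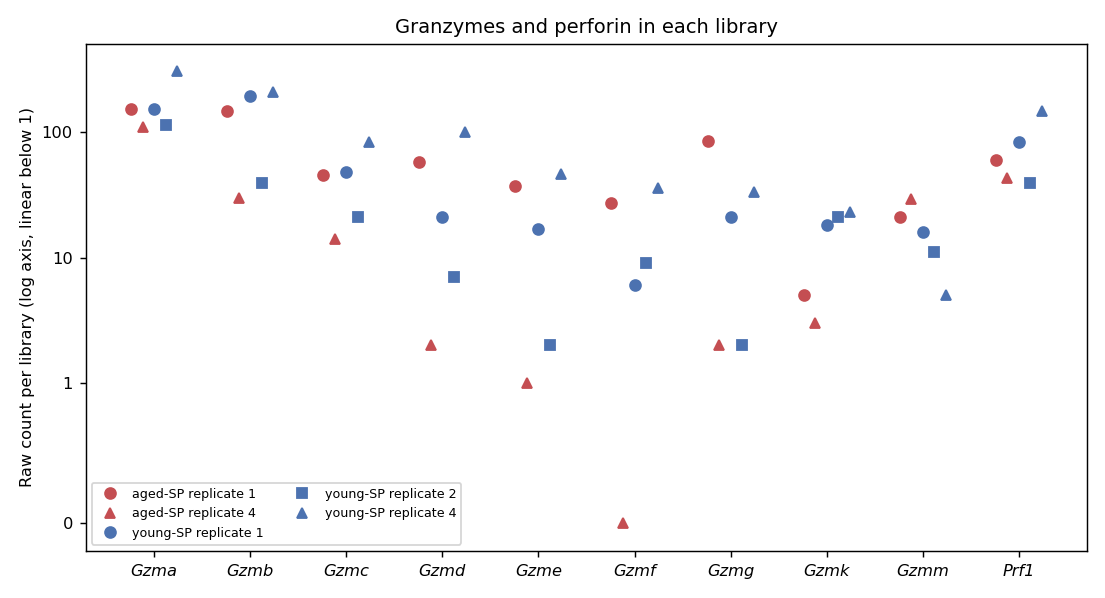
Raw counts of the granzyme genes and Prf1, with 1 point per library on an axis that is linear below 1 and logarithmic above. Aged-SP replicate 4 and young-SP replicate 2 lie low for Gzmb to Gzme and Gzmg, while the groups are apart for Gzmk (aged-SP lower) and for Gzmm (aged-SP higher).

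Signals that maintain lymphocytes and draw them into tissue were followed in a further pair of lists. Of 13 cytokine and cytokine receptor genes 11 were tested and 0 were called by edgeR. At an unadjusted p under 0.05, 0 were lower, against 9.36% of all tested genes, and 0 higher, against 9.62%. By fold change 8 were higher and 3 lower, against 49.1% lower over all tested genes. In CPM the groups were apart for 3 that were higher and 2 that were lower, against 38.8% of all tested genes in either direction. Their median log2 fold change was 0.16, and -0.13 without aged-SP replicate 1. Among the abundant ones, Stat5b (974 and 956 reads against 862, 892 and 812) and Tgfb1 (685 and 693 against 544, 653 and 577) did not overlap between the groups, with log2 fold changes of 0.16 ± 0.08 and 0.21 ± 0.10. Stat5a was read 682 and 360 times against 316, 409 and 318 times. Il7r, the receptor for the survival cytokine IL-7, was read 51 and 55 times against 36, 27 and 35 times, and Il18, which activates NK cells, 44 and 52 times against 58, 105 and 72 times. Their adjusted p-values were 0.273 and 0.298 (edgeR). Il15, which NK cells need to survive (picked after its values were seen), was read 138 and 89 times against 203, 141 and 110 times, with overlap. Ifng and Il2, cytokines of activated NK and T cells (also picked after their values were seen), gave at most 6 reads and 1 read in any library.

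All 9 homing receptor genes were tested, and 0 were called by edgeR or had an unadjusted p under 0.05 in either direction. Their log2 fold changes were higher for 2 and lower for 7, against 49.1% lower over all tested genes, with a median of -0.09. In CPM the groups were apart for 1 that was higher and 3 that were lower, against 38.8% of all tested genes in either direction. Cxcr6, which guides T and innate lymphoid cells within tissue, was read 117 and 36 times in the aged-SP libraries and 167, 233 and 124 times in the young-SP libraries, and Cxcr3, of activated T and NK cells, 39 and 48 times against 53, 72 and 65 times. Neither overlapped, but their log2 fold changes of -1.21 ± 0.51 and -0.55 ± 0.26 had adjusted p-values of 0.283 and 0.330 (edgeR). That of Cxcr6 was -2.23 without aged-SP replicate 1 and -0.62 without aged-SP replicate 4. Itgal, an integrin chain of lymphocytes, was read 392 and 256 times against 678, 474 and 332 times, with overlap. S1pr1, which lymphocytes use to leave tissue and which endothelium expresses strongly, was read 674 and 687 times against 374, 674 and 494 times, with a log2 fold change of 0.40 ± 0.23 and an adjusted p of 0.397 (edgeR).

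Markers of other immune cells moved between single libraries. The 5 general leukocyte genes summed to 297 and 316 CPM in the aged-SP libraries and to 396, 281 and 293 CPM in the young-SP libraries, overlapping. Macrophage markers (7 genes, led by C1qb and C1qc) summed to 587 and 934 CPM against 976, 474 and 684 CPM, and neutrophil markers (6 genes, led by S100a9 and S100a8) to 67.0 and 6.65 CPM against 132, 22.0 and 10.2 CPM. Mast cell markers (7 genes, led by Cma1 and Cpa3) summed to 75.1 and 211 CPM against 42.8, 77.6 and 109 CPM, highest in aged-SP replicate 4, the library with the high Cd4 and low CD3 counts. B cell markers (led by Jchain and Ighm) and dendritic cell markers (led by Zbtb46 and Itgax) summed to between 41.3 and 100.6 CPM and between 43.3 and 53.1 CPM in the 5 libraries, and the defining B cell genes Ms4a1 and Pax5 were too low to be tested. Lymph node markers (led by Ccl21a and Cxcl13) summed to 12.2 and 12.8 CPM against 7.94, 9.28 and 6.28 CPM, higher in the aged-SP group. The Ccl21a entry on scaffold JH584294.1 carried this sum, with 158 and 167 reads against 73, 111 and 73. Another Ccl21a entry, on chromosome 4, gave 1 and 0 reads against 2, 0 and 0. Cxcl13 was the other way, with 10 and 10 reads against 24, 29 and 14. In that list 2 entries, the chromosome 4 Ccl21a among them, were at 3 counts or fewer in every library. The part of these cells in the T and NK gene counts was not tested.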

How the data were processed

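RNA of 5 uterus libraries was analysed, 2 aged-SP and 3 young-SP, grouped by the sample titles, and 0 per-sample columns were left unused. The unnormalized counts per gene were made and deposited by the authors from filtered reads. The submitters' processing notes name HISAT2 2.1.0, HTSeq 0.6.0 and Bowtie2 2.2.3, and the build is not given in the sources used here, but the positions of 9 of the 10 genes equal those of GENCODE M21 on GRCm38 (not Foxp3). The deposited FPKM were found to equal the counts over gene length and library total, which held within a tolerance of 0.001 for 25123 of 25123 genes checked, and served only to compare levels between genes. The mean signal after size factor scaling, the log2 fold changes and the p-values and adjusted p-values that the authors deposited hold their own comparison and were not used.

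R 4.3.3 was used with edgeR 4.0.16, with limma 3.58.1 and with DESeq2 1.42.0, and Python 3.11.15 with matplotlib 3.10.9. The filter was filterByExpr, and counts were scaled by TMM and compared with glmQLFit and glmQLFTest over all 17013 kept genes. The common dispersion was 0.0629, the biological coefficient of variation 25.1% and the prior degrees of freedom 2.55. Before this the code was tested on counts simulated with edgeR's dispersions. In these, DESeq2 made a larger share of false calls than edgeR or limma-voom. CPM are counts over the TMM-scaled library size. SE values are those of the edgeR log2 fold change. Precision is limited by counting error and by the number of libraries, and total counts were between 15071914 and 16728601. No pair of libraries agreed within sampling noise (over 10 pairs, chi-square divided by its degrees of freedom was 17.0 to 82.3), so each counted as 1 sample. Replicate numbers 1 and 4 occur in both groups.

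The genes and the marker lists were chosen with earlier results of these data known. From each list the text names the 3 genes of highest mean CPM, the 2 of smallest unadjusted p, every called gene and every gene at 0 counts throughout, and from lists of other cell types the summed CPM and the 2 genes of highest mean CPM. A gene that the rule names but the text does not is not reported here. Other genes are said to be picked after their values were seen. The alternatives tried were scaling by library size or by DESeq2 size factors, limma-voom and the Wald test of DESeq2, a minimum of 10 counts per sample or no filter at all, adjusted p with no fold threshold, the replicate number as a block, and each library left out. Promoter windows are the 250 bases before RefSeq start sites.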

Additional observations from a re-analysis of the deposited data

How the results depend on the processing

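Low counts and the number of libraries limit these values. The number of the 10 genes called was 0 in all settings (leave-one-out range 0 to 0) except DESeq2's Wald test, which called 1, and tested genes that were higher numbered 1, with a leave-one-out range of 1 to 2 (2 without young-SP replicate 1). Leaving out 1 library at a time gave median log2 fold changes of -0.61 to -0.26 for the NK list, -0.89 to -0.40 for T cell signalling, -1.20 to 0.32 for the cytotoxic granule, -0.011 to 0.485 for regulatory T cells, -1.55 to -1.17 for receptor constant regions, -0.13 to 0.28 for cytokines and -0.27 to -0.16 for homing receptors. The sign turned, over the same settings, for Cd4 (-0.22 to 1.03), Cd8a (-1.81 to 0.51), Lcp2 (-0.30 to 0.11), Tyrobp (-0.15 to 0.48), Xcl1 (-0.55 to 1.13), Gzmd (-4.36 to 1.08), Gzme (-4.30 to 0.97), Gzmf (-7.13 to 0.58) and Gzmg (-3.16 to 2.07), and the cause was not tested. Without an aged-SP library the lone one was assumed to vary like the others. Of all tested genes edgeR called 25, against 632 by DESeq2, 203 with no filter, 578 without young-SP replicate 1, 49 without aged-SP replicate 4, 1 without aged-SP replicate 1, 2 or 3 when young-SP replicate 4 or 2 was left out, and between 18 and 27 with the other settings apart from the block. The groups share only the replicate numbers 1 and 4, whose libraries deviated together with correlations of 0.152 and 0.136, so the numbers are not shown to pair the samples. With the replicate block edgeR called 2 of all genes and 0 of the 10, the log2 fold changes were -1.17 for Cd3d, -1.16 for Cd3g and -1.02 for Ncr1 (adjusted p 0.324, 0.214 and 0.399), and that of Gzmg was -0.23 in place of 1.12.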
